A study of Danio rerio with 40 samples.

Results

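The genes described here belong to the machinery that fuses synaptic vesicles with the plasma membrane, measured by RNA-seq in the brain of adult zebrafish (*Danio rerio*). They were chosen by name, as every gene of the annotated gene table whose symbol begins with syt, stx, stxbp, vamp, snap or syn followed by a digit, or with sv2, rims or cplx. This rule found 88 of 25806 genes, all 88 of them protein-coding, and every one was present in the count tables. The fish were AB wild-type adults about 1 year old, and 1 library was made from the brain of each of 40 fish. There were 20 females and 20 males, and by the labels each sex held 10 fish under 60% GA (gum arabic, a dietary fibre from Acacia trees, given with the dry feed for 2 weeks) and 10 Control fish on the standard feed. Counts were deposited in a table of females and a table of males whose columns carry no diet label, so sexes were compared with both diets together and no comparison of diets was made.

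A synaptic vesicle fuses when a SNARE of its own membrane (VAMP, also called synaptobrevin) winds into a bundle with syntaxin and SNAP-25 of the plasma membrane. Syntaxin-binding protein 1 (Munc18) holds syntaxin and guides the bundle, complexins clamp and activate it, and some synaptotagmins sense calcium and trigger fusion. RIM proteins arrange the release site, synapsins tether vesicles in reserve, and SV2 proteins sit in the vesicle membrane. Related syntaxins, VAMPs and SNAPs serve fusion inside every cell, from the Golgi to endosomes. Teleost fish kept extra copies of many of these genes after a genome duplication, which are named with a final a or b.

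Library totals ran from 10101101 to 17542618 counts in females (median 14207762) and from 9392143 to 19131404 counts in males (median 13906276). The number of genes with 1 count or more ran from 15540 to 22741 in females and from 16434 to 22290 in males. It was below 18000 in 6 libraries, 3 female and 3 male, in which it reached at most 17146, against 18656 or more in the other 34. A second flow cell held 3 libraries, 1 female and 2 male. All 7 neuron markers were detected, with a summed level of 1638 to 3010.5 CPM (counts per 1000000 of the library total) in females and 1613 to 3120.3 CPM in males. All 20 retina markers had a count in some fish, and their sum had a median of 13.6 CPM. It ran from 3.46 CPM up to 2058 CPM in 1 female, and the next highest fish had 276 and 154 CPM. Red blood cell markers summed to between 264 and 71717 CPM over all fish, and oligodendrocyte markers to between 4348 and 23997 CPM. Of the regional genes, foxg1a, which defines the telencephalon, had a median of 0.489 CPM and reached 74.4 CPM in 1 fish. The medians of the 11 telencephalon genes checked ran from 0 CPM (emx1) to 70.4 CPM (neurod6b). Between them lay emx3 (0.286 CPM), tbr1b (2.02 CPM), dlx2a (7.24 CPM) and dlx5a (9.23 CPM). Higher medians were those of emx2 (30.6 CPM), eomesa (31.2 CPM), bhlhe22 (47.3 CPM) and neurod6a (65.4 CPM). The sum of the 11 genes, to which they contributed unevenly, was 124 CPM or more in every fish. Its median was 294 CPM in females and 275 CPM in males. No gene checked the sex of a column, which rests on the titles of the 2 tables.

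Levels are given as CPM, with library totals adjusted by TMM scaling, and are not corrected for transcript length, so they compare fish and not genes. In whole tissue, fewer cells of a type and less RNA per cell cannot be told apart. A library with 0 counts of a gene allows up to between 0.148 and 0.394 CPM, depending on its depth (3 counts, counting error only).

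The 88 genes together gave similar sums in both sexes. Their summed level was 18164 ± 1708 CPM in females and 18604 ± 1333 CPM in males (SD, n = 20 each), and ran from 13379 to 21068 CPM over all 40. By class, the neuronal SNAREs summed to 7484 ± 873 CPM in females and 7697 ± 787 CPM in males, and the synaptotagmins to 3408 ± 359 CPM in females and 3397 ± 323 CPM in males. The complexins summed to 816 ± 143 CPM in females and 793 ± 259.7 CPM in males, and the RIM genes to 508 ± 251 CPM in females and 583 ± 232 CPM in males. Relative to their sums, complexins and RIM genes thus spread more over fish than the SNAREs. Of the 88 members, 73 passed the filter on low counts and entered the test.

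Among the neuronal SNAREs, snap25a gave the steadiest values and vamp2 the least steady. The level of snap25a, one of the pair of zebrafish SNAP-25 genes, ran from 3520.2 to 5416 CPM in females (median 4352) and from 3208 to 5215 CPM in males (median 4458). Its highest fish was only 1.69 times its lowest. Its copy snap25b ran from 648 to 2517 CPM in females (median 1411) and from 615 to 2764 CPM in males (median 1562), a 4.50-fold range. Of the SNAP-25 copies, snap25b thus had the wider range in each sex. The syntaxin stx1a gave almost no reads, with 0.330 CPM at most in females and 0.534 CPM at most in males, and no count in 31 of 40 fish. The vesicle SNARE vamp1 ran from 384 to 724 CPM in females (median 551) and from 172 to 815 CPM in males (median 561). The male values of vamp1 thus reached both lower and higher than the female ones. The other vesicle SNARE, vamp2, ran from 1.04 to 117 CPM in females (median 13.5) and from 0 to 97.1 CPM in males (median 22.2). Its fold change by sex had the 95% interval from -0.88 to 0.97 on the log2 scale, whereas that of snap25a ran from -0.12 to 0.14.

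**Figure D1:**
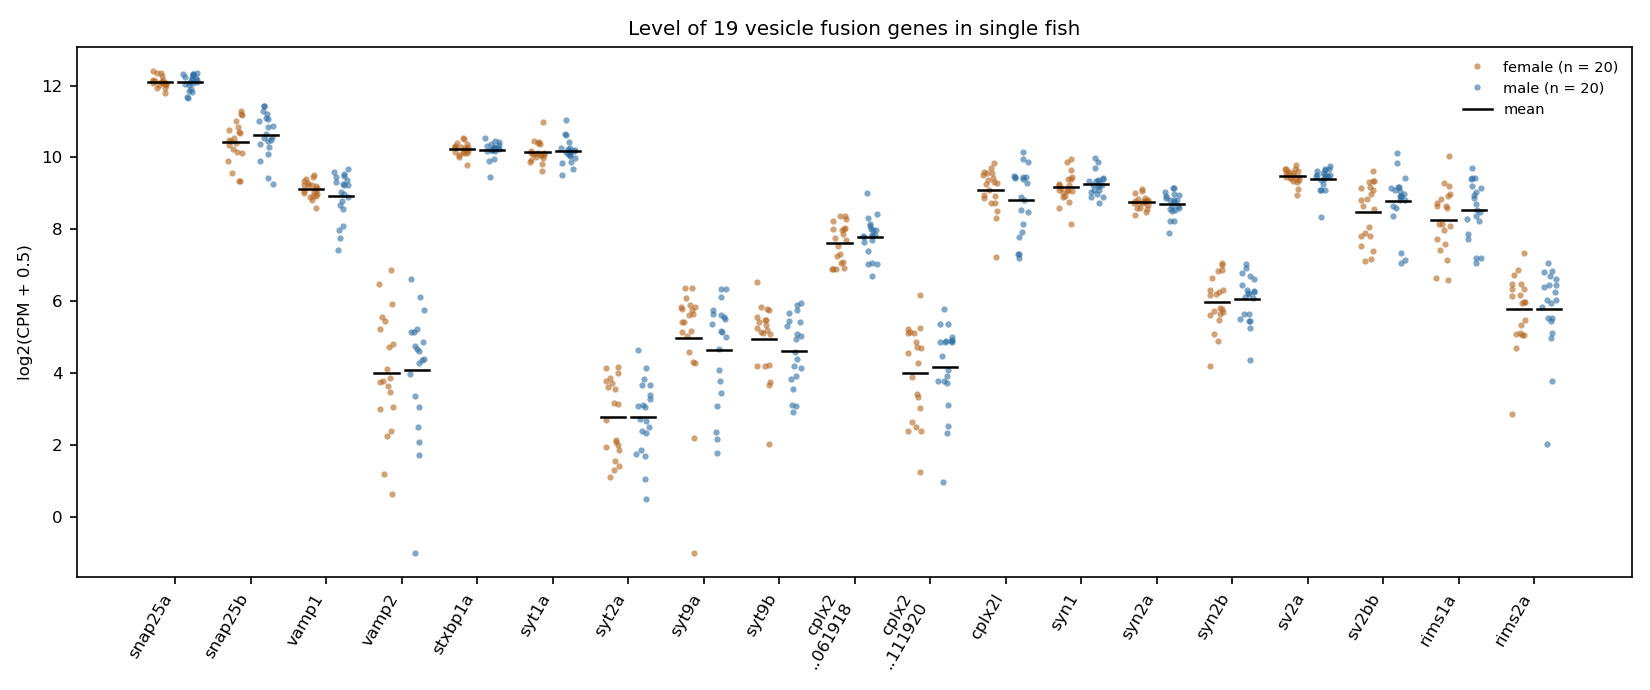
Level of 19 members in every fish as log2(CPM + 0.5), females at the left of each gene and males at the right, 1 point per fish, with the mean of each sex as a bar. The points of snap25a and stxbp1a lie close together, those of vamp2 spread from 0 to 117 CPM, the sexes overlap for every gene, and the 2 genes named cplx2 carry the last digits of their Ensembl IDs.

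Of the 10 syntaxin-binding proteins, stxbp1a (Munc18-1) had the highest mean and was among the steadiest members. It ran from 878 to 1476 CPM in females (median 1206) and from 707 to 1497 CPM in males (median 1213). The lowest member past the filter was stxbp5b, a copy of tomosyn, which in mammals competes with VAMP for syntaxin. Its values were 1.37 to 11.0 CPM in females (median 5.87) and 1.27 to 13.1 CPM in males (median 5.57).

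The complexins differed in how far they varied. The file gives the symbol cplx2 to 2 genes, of which ENSDARG00000061918 ran from 118 to 331 CPM in females (median 211) and from 103 to 512 CPM in males (median 225). The other, ENSDARG00000111920, which the reference name table lists as CPLX1, ran from 1.87 to 71.6 CPM in females (median 20.9) and from 1.44 to 54.2 CPM in males (median 25.0). The gene cplx2l ran from 151 to 918 CPM in females (median 615) and from 145 to 1139 CPM in males (median 551). The values of all 3 overlapped between the sexes. The other 5 complexins, of the cplx3 and cplx4 kinds that mammals use at the ribbon synapses of the retina, did not pass the filter. The gene cplx4c reached 7.86 CPM in the female with the highest retina sum (2058 CPM), and no more than 0.839 CPM in any other fish. The highest values of cplx3b (6.85 CPM) and of cplx3a ENSDARG00000062508 (4.30 CPM) stood in females with retina sums of 12.6 and 16.1 CPM. For cplx3a ENSDARG00000099196 and cplx4a the highest values were 1.79 and 1.23 CPM, both in females, and that of cplx4a stood in the same female with the highest retina sum.

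Synaptotagmins, the class that holds the calcium sensors, were for the most part uneven over fish. Exceptions were syt4, syt1a, syt13 and syt11a, with SDs of log2(CPM + 0.5) of 0.23, 0.31, 0.39 and 0.40, against a median of 0.48 over genes. In mammals syt1 and syt2 drive fast release and syt7 slow release. The sensor syt1a had the highest mean of the 23 and ran from 788 to 2026 CPM in females (median 1093) and from 729 to 2087 CPM in males (median 1143). The highest value of each sex stood among the 6 libraries with the fewest genes. In the other 34 libraries syt1a reached at most 1398 CPM. The copy of syt1a, syt1b, had no count in 33 fish. Of the slow sensors, syt7b ran from 22.9 to 181 CPM in females (median 69.1) and from 41.1 to 291 CPM in males (median 77.2). The lowest synaptotagmin past the filter was syt7a, with 0 to 4.36 CPM in females (median 1.52) and 0.451 to 5.18 CPM in males (median 1.77). The synaptotagmin syt9a ran from 0 to 81.7 CPM in females (median 45.1) and from 2.91 to 81.01 CPM in males (median 35.2). Low fish, down to 1 female without a count, were found in both sexes.

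All 3 synapsins passed the filter. For syn1 the values were 284 to 984 CPM in females (median 557) and 424 to 1008 CPM in males (median 599.7). For syn2a they were 335 to 559 CPM in females (median 436) and 238 to 570.0 CPM in males (median 439). The copy syn2b varied more, from 17.7 to 133 CPM in females (median 63.5) and from 20.0 to 131 CPM in males (median 73.6). Of the 5 SV2 genes, sv2a was steady, at 494 to 884 CPM in females (median 719) and 326 to 874 CPM in males (median 717). The gene sv2bb had an 8.28-fold range, at 138 to 791 CPM in females (median 426) and 133 to 1105 CPM in males (median 486). Low levels were measured for the other 3, whose means were 2.26 ± 2.06 CPM in females and 2.43 ± 1.37 CPM in males for sv2 (SD, n = 20 each). The means of sv2ba were 1.53 ± 1.505 CPM in females and 1.84 ± 1.44 CPM in males. Those of sv2ca were 1.45 ± 1.68 CPM in females and 1.24 ± 1.08 CPM in males.

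RIM genes, which arrange the release site, were among the most variable members. The gene rims1a ran from 95.2 to 1043 CPM in females (median 336) and from 134 to 829 CPM in males (median 394). Its copy rims1b ran from 1.59 to 101 CPM in females (median 40.9) and from 2.86 to 195 CPM in males (median 44.2), where the highest male, 1 of the 6 libraries with the fewest genes, stood above the next fish at 101 CPM. Low and high fish occurred in both sexes. The level of rims2a ran from 6.73 to 161 CPM in females (median 62.8) and from 3.54 to 133 CPM in males (median 64.4). Its copy rims2b was steadier, at 15.1 to 48.1 CPM in females (median 33.8) and 11.0 to 55.4 CPM in males (median 28.6). Both rims3, with a mean of 1.99 ± 2.43 CPM in females and 1.64 ± 1.42 CPM in males, and rims4, with 4.799 ± 3.52 CPM in females and 5.87 ± 4.89 CPM in males, were low.

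The classes of SNAREs outside the neuronal ones, set apart by name, gave fewer reads in sum. Among the 17 syntaxins outside the neuronal SNAREs, stx12l had the highest mean, 155 ± 27.2 CPM in females and 139 ± 36.5 CPM in males. The lowest past the filter was stx2b, with 0.799 ± 0.577 CPM in females and 0.908 ± 0.859 CPM in males. Of the VAMPs outside the neuronal SNAREs, vamp4, a SNARE of the Golgi and endosomes, had the highest mean. It was 78.2 ± 18.2 CPM in females and 73.9 ± 14.1 CPM in males. The lowest of these VAMPs was vamp8, with 13.2 ± 5.12 CPM in females and 13.4 ± 5.28 CPM in males. Of the SNAP-25 relatives, snap29 had 54.7 ± 9.26 CPM in females and 53.9 ± 8.23 CPM in males, and snap47 had 6.89 ± 5.67 CPM in females and 6.39 ± 4.37 CPM in males. The rule also took in snap91a and snap91b, whose product AP180 assembles clathrin for taking vesicle membrane back. Their means were 380.1 ± 139.8 CPM in females and 399.7 ± 168 CPM in males for snap91a, and 140.1 ± 57.1 CPM in females and 137 ± 54.1 CPM in males for snap91b.

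The 15 members below the filter were cplx3a (both genes of that name), cplx3b, cplx4a, cplx4c, snap23.2, stx1a, stx7l, stx11b.1, stxbp4, syt1b, syt14a, syt15, syt16 and syt17. Their mean levels were at most 0.932 CPM. Each had a count in at least 1 fish.

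Spread over fish was measured as the SD of log2(CPM + 0.5) in the 63 members with a mean of 5 CPM or more. The 5 smallest SDs were those of stx5a (0.17), stx16 (0.17), snap25a (0.18), stx10 (0.19) and stxbp1a (0.20), that is 3 syntaxins that in mammals serve the Golgi and 2 proteins of the neuronal fusion site. The 5 largest were those of syt5b (1.79), vamp2 (1.69), syt9a (1.55), syt11b (1.501) and syt6a (1.47), of which 4 are synaptotagmins. All 5 had at least 1 fish without a count, and each such fish was among the 6 libraries with the fewest genes. In the other 34 libraries the SDs were 1.43 for syt5b, 1.34 for vamp2, 1.04 for syt9a, 1.18 for syt11b and 1.31 for syt6a. The level of syt5b, for example, ran from 0 to 146 CPM in females (median 46.9) and from 1.19 to 105 CPM in males (median 37.6), whereas that of stx5a ran from 37.2 to 59.9 CPM in females (median 51.9) and from 40.8 to 68.6 CPM in males (median 52.8). For syt11b the values were 0 to 34.2 CPM in females (median 8.95) and 0.602 to 34.3 CPM in males (median 12.3). In both uneven genes the lowest fish was a female and the sexes overlapped. By class, the median SD was 0.29 for the SNAP-25 relatives, 0.32 for syntaxins outside the neuronal SNAREs and 0.49 for neuronal SNAREs. It was 1.00 for synaptotagmins and 1.07 for RIMs. Over the 63 members the median was 0.53, against 0.48 over all 11248 genes at that level. An SD above 1 was found in 15 of the 63 members (23.8%), against 13.9% of those genes. These medians and shares are over all 40 libraries and were not recomputed without the 6 with the fewest genes. In the other 34 the SDs of the RIMs were 0.79 for rims1a, 1.35 for rims1b, 0.78 for rims2a, 0.40 for rims2b and 0.98 for rims4.

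No member passed the test of a difference between the sexes. With edgeR's quasi-likelihood test and Benjamini-Hochberg adjustment over 16875 genes, 0 of 73 members were called higher in females and 0 lower, against a background of 0% of all genes called in either direction. DESeq2 and limma-voom also called none. At an unadjusted p under 0.05, edgeR found 1 of 73 members, against 374 of all genes (2.22%), DESeq2 621 of 27947 (2.22%) and limma-voom 279 of 16875 (1.65%). The log2 fold changes, female over male, were above 0 for 37 members and below 0 for 36, with a median of 0.01 over members and of -0.003 over all genes tested. The 5 smallest unadjusted p-values belonged to syt5a, syt10, syt7b, stx12l and syt13, which are named for that order alone and all had an adjusted p of 0.9999 by edgeR.

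The member with the smallest p was the synaptotagmin syt5a. It ran from 0.859 to 24.7 CPM in females (median 3.52) and from 0 to 7.43 CPM in males (median 1.63), so most of its values overlapped. Its log2 fold change was 1.03 ± 0.47 (SE) with an unadjusted p of 0.033 in edgeR's fit. The female with 24.7 CPM, which also had the highest retina sum (2058 CPM), stood apart, since no other fish passed 7.43 CPM. Without that library the log2 fold change of syt5a was 0.65 with an unadjusted p of 0.149 in edgeR's fit, and the part of retinal RNA in this value was not tested. Next came syt10, which ran from 4.78 to 78.9 CPM in females (median 41.8) and from 3.15 to 49.8 CPM in males (median 32.2), with a log2 fold change of 0.40 ± 0.27. The 95% intervals ran from 0.11 to 1.95 for syt5a and from -0.13 to 0.93 for syt10, and neither gene passed after adjustment. The syntaxin stx12l ran from 105 to 209.7 CPM in females (median 148) and from 51.2 to 203 CPM in males (median 140.2), with a log2 fold change of 0.15 ± 0.11 that was 0.05 without the 6 libraries with the fewest genes. The synaptotagmin syt13 ran from 141 to 408 CPM in females (median 209) and from 112 to 359.9 CPM in males (median 186), with a log2 fold change of 0.17 ± 0.12. For syt7b, whose values stand above, it was -0.28 ± 0.20. In the neuronal SNAREs the log2 fold changes were -0.19 ± 0.18 for snap25b and 0.10 ± 0.14 for vamp1. Those of rims1a, rims1b and sv2bb were -0.22 ± 0.25, -0.46 ± 0.36 and -0.28 ± 0.23, and that of cplx2l was 0.12 ± 0.22. How large a sex difference these data leave room for depended on the spread of each gene. For stx5a the 95% interval of the log2 fold change ran from -0.18 to 0.06 and for stxbp1a from -0.13 to 0.14, whereas for rims1b it ran from -1.18 to 0.25 and for syt5b from -0.32 to 1.34.

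**Figure D2:**
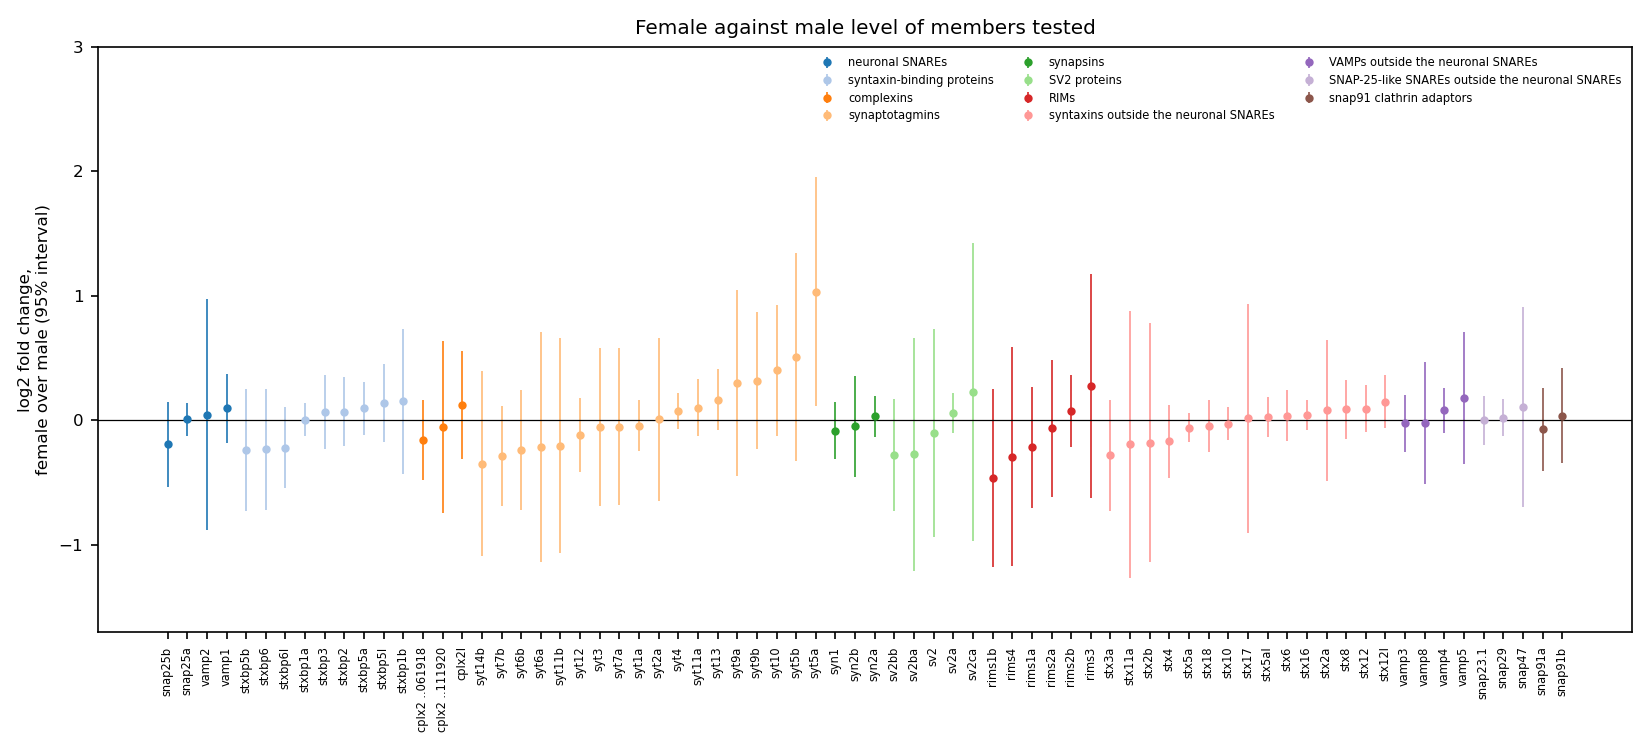
Log2 fold change, female over male, of 72 of the 73 members tested, by class and by value within a class (20 females and 20 males). The 95% intervals are normal intervals with a standard error derived from the fold change and F statistic of edgeR's test. Points lie between -0.46 and 1.03, and all intervals but that of syt5a (0.11 to 1.95) include 0.

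None of the genes that work beside the members in the vesicle cycle passed the test by sex either. Of 69 such genes in 7 lists, 63 were tested, 0 were called higher and 0 lower in females, and none had an unadjusted p under 0.05 in edgeR's fit. Their log2 fold changes lay between -0.53 and 0.54 with a median of -0.01. In the list of NSF and its adaptors, which take used SNARE bundles apart, nsfa gave the most reads, with 793 ± 126 CPM in females and 752 ± 193 CPM in males. Among the priming factors Munc13 and CAPS it was cadpsb, with 448 ± 115 CPM in females and 444 ± 93.7 CPM in males. Of Rab3 and its effectors rab3b led with 182 ± 47.1 CPM in females and 167 ± 57.4 CPM in males. The active zone scaffold with the most reads was pcloa (piccolo), with 437 ± 257 CPM in females and 509 ± 255 CPM in males. Synaptophysin sypb had 995 ± 211 CPM in females and 1010.2 ± 197 CPM in males. The cysteine string protein gene dnajc5ab had 164 ± 28.9 CPM in females and 168 ± 32.4 CPM in males, and the clathrin heavy chain gene cltcb had 390.1 ± 35.7 CPM in females and 395 ± 32.1 CPM in males.

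The balance between the a and b copies was compared next, as the log2 ratio of their counts within each fish, which needs no library scaling. Of 17 pairs, 14 had both genes past the filter. No ratio differed by sex at an adjusted p under 0.05, and none at an unadjusted p under 0.05, by a two-sided permutation test with 100000 resamples. Differences of the sex means, female minus male, lay between -0.64 for syt6a/syt6b and 1.08 for syt5a/syt5b, with a smallest adjusted p of 0.962. The difference for snap25a/snap25b was 0.20, from 1.68 ± 0.56 in females and 1.48 ± 0.74 in males (SD, n = 20 each).

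**Figure D3:**
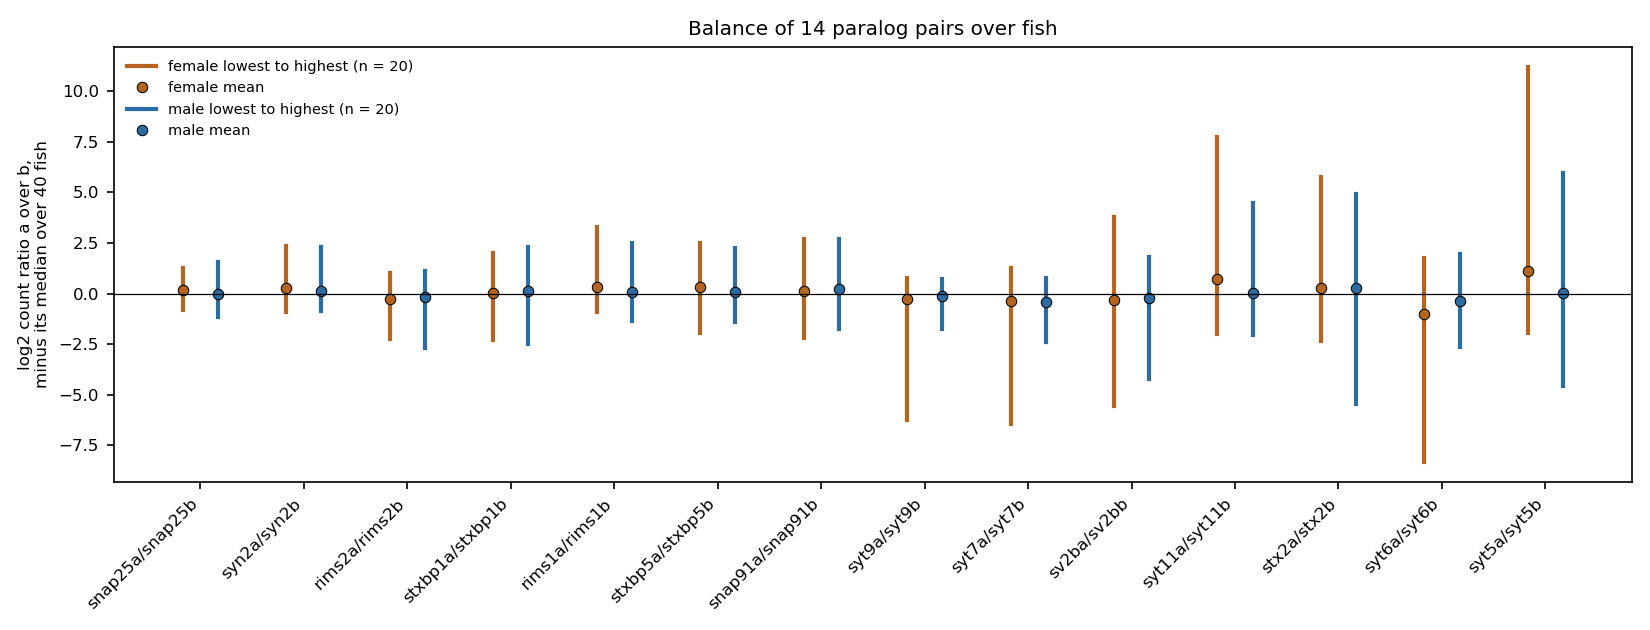
Log2 count ratio of the a copy to the b copy in 14 pairs, minus the median of the pair over 40 fish, ordered by spread; lines run from the lowest to the highest fish and points mark the mean, females at the left and males at the right. The ratio of snap25a to snap25b spans the narrowest range and that of syt5a to syt5b the widest, where 2 fish had no count of syt5a and 1 fish none of syt5b.

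Whether the copies rose and fell together over fish was tested by correlating their log2 CPM (n = 40, 14 pairs, permutation p adjusted over the pairs). The levels of 4 pairs went together and those of 2 went opposite ways at an adjusted p under 0.05, which is 28.6% and 14.3% of the 14. Of all pairs that can be formed from the 16875 genes tested, 12.6% and 10.6% had a correlation at least as strong as the weakest of these. The pair syt9a/syt9b had r = 0.90 and rho = 0.91 (adjusted permutation p = 3.5e-05 for r and 4.67e-05 for rho), and r = 0.86 without the 2 fish farthest from the median of syt9a. Within the sexes r was 0.89 in females and 0.91 in males. The pairs rims1a/rims1b and rims2a/rims2b had r = 0.72 and 0.70 (rho 0.68 and 0.58, adjusted permutation p = 3.5e-05 for both r). Without the 2 fish farthest from the median of the a copy, r was 0.77 for rims1a/rims1b and 0.51 for rims2a/rims2b. Without the 6 libraries with the fewest genes it was 0.75 and 0.50 (n = 34). For sv2ba/sv2bb r was 0.39 and rho 0.48 (adjusted permutation p = 0.0318 for r), with 0.07 in females and 0.68 in males. This pair alone lost its call without the 6 libraries with the fewest genes (r = 0.38, adjusted permutation p = 0.0563, n = 34) or without the second flow cell (r = 0.37, adjusted permutation p = 0.0539, n = 37). The opposed pairs were snap91a/snap91b, with r = -0.74 and rho = -0.84 (adjusted permutation p = 3.5e-05 for r), and stxbp5a/stxbp5b, with r = -0.50 and rho = -0.48 (adjusted permutation p = 0.00311 for r). Within females and males r was -0.71 and -0.77 for snap91a/snap91b. The steady snap25a and the variable snap25b gave r = -0.22 and rho = -0.28 (adjusted permutation p = 0.238 for r). Within the sexes r of this pair was 0.23 in females and -0.52 in males.

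The ratio of snap25b to snap25a was used to order the fish, a choice made after the values were seen. It ran from -2.80 to -0.72 in females and from -3.08 to -0.38 in males on the log2 scale. Of the other 71 members tested, 16 rose with this ratio and 18 fell at an adjusted permutation p under 0.05 (n = 40 fish). At the smallest correlation so called, 18.0% of all genes tested rose and 21.2% fell, so that the members' shares of 22.5% and 25.4% were close to those of genes at large. Of the 34, 33 kept their sign in each sex and without the 2 fish with the most extreme ratios. The exception was syn2a, with r of 0.05 in females and -0.57 in males.

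At the ends of this order stood syt6b, which ran from 23.7 to 132 CPM in females (median 53.6) and from 11.3 to 165 CPM in males (median 64.4), and syt9b, which ran from 3.53 to 91.2 CPM in females (median 36.95) and from 6.97 to 61.0 CPM in males (median 26.7). The syntaxin stx6, which in mammals serves the trans-Golgi network, ran from 51.3 to 127 CPM in females (median 104) and from 51.3 to 137 CPM in males (median 105). The members that rose with the ratio were led by syt6b (r = 0.91, rho = 0.91), sv2bb (0.89, 0.88), rims1a (0.89, 0.91), syt12 (0.82, 0.83), rims1b (0.77, 0.72), syn1 (0.77, 0.82) and the cplx2 gene ENSDARG00000061918 (0.71, 0.72), each with an adjusted permutation p of 4.44e-05. Those that fell were led by syt9b (r = -0.83, rho = -0.90), cplx2l (-0.82, -0.83), syt10 (-0.80, -0.87), syt9a (-0.79, -0.93), stx6 (-0.75, -0.82), vamp5 (-0.72, -0.79), vamp1 (-0.70, -0.67) and syt11a (-0.70, -0.75), each again with an adjusted permutation p of 4.44e-05 for r. Complexins, synaptotagmins, SV2 proteins, syntaxin-binding proteins and the syntaxins outside the neuronal SNAREs had members on either side. Of those syntaxins stx18 rose (r = 0.39, rho = 0.46, adjusted permutation p = 0.0292 for r) while stx6 and stx12l fell. Among the synapsins the falling side was syn2a alone, which lost its call without the 6 libraries with the fewest genes (r = -0.23, adjusted permutation p = 0.307). Within the SV2 proteins, for example, sv2bb rose while sv2a fell (r = -0.49, rho = -0.55, adjusted permutation p = 0.00306 for r). Over all 40 fish vamp1, vamp3, vamp4, vamp5 and vamp8 fell, and rims1a and rims1b rose. Without the 6 libraries with the fewest genes, vamp3 (r = -0.20, adjusted permutation p = 0.379) and vamp4 (r = -0.32, adjusted permutation p = 0.144) were no longer called, and rims2b was called on the falling side (r = -0.47, adjusted permutation p = 0.013). These correlations share the library, its scaling and the 2 genes of the ratio.

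**Figure D4:**
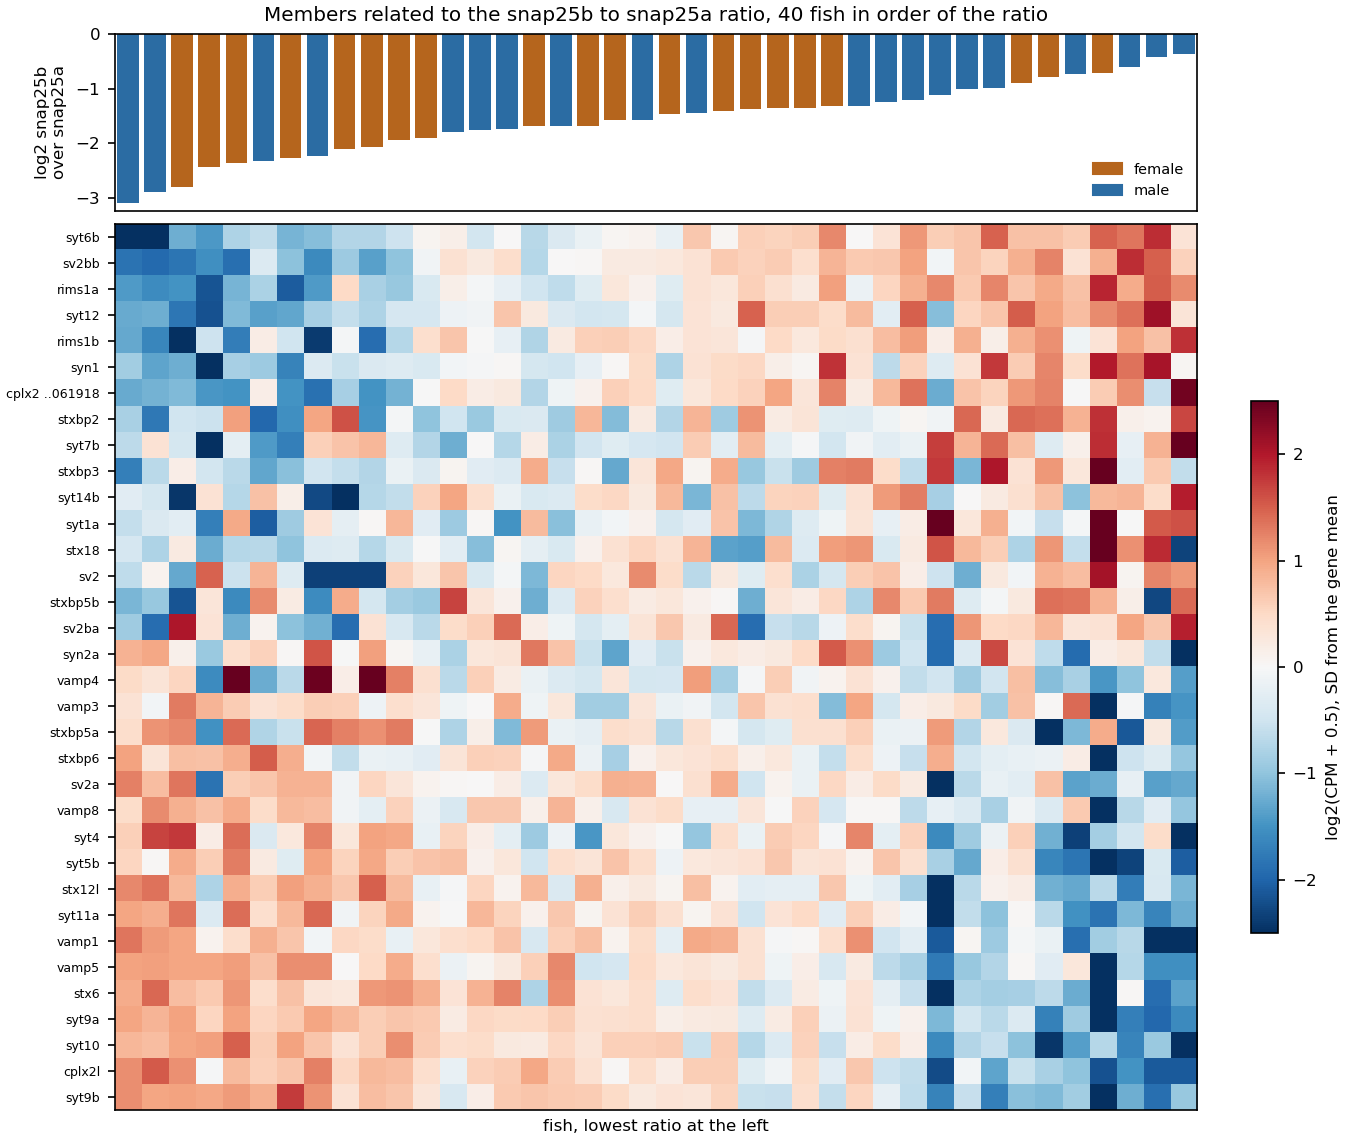
Top, log2 ratio of snap25b to snap25a in 40 fish in rising order, coloured by sex. Below, log2(CPM + 0.5) of the 34 members related to it, in SDs from the mean of each gene (red high, blue low), where syt6b to sv2ba pass from blue to red and syn2a to syt9b from red to blue, and the sexes lie mixed along the order.

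Markers of brain regions and cell types moved with the same ratio, and their part in it was not tested. Region lists were written after the members' values were seen. The summed level of 7 genes of the cerebellum ran from 517 to 7496 CPM in females and from 229 to 8607 CPM in males, and rose with the ratio (r = 0.89, rho = 0.89, adjusted permutation p = 6.5e-05 over 13 measures for both). Within the sexes r was 0.94 in females and 0.86 in males, and without the 2 most extreme fish it was 0.85. The single genes neurod1 and zic1, transcription factors of cerebellar granule cells, had r of 0.92 and 0.89, whereas pvalb7, a Purkinje cell gene, had 0.30. The 13 hox genes of the hindbrain and cord, 10 of them below 1 CPM on average, had r = 0.44 and rho = 0.46 (adjusted permutation p = 0.0103 for r). The 5 markers of radial glia and astroglia ran from 1237 to 6871 CPM in females and from 1335 to 6107 CPM in males and fell with the ratio (r = -0.64, rho = -0.69, adjusted permutation p = 6.5e-05). The microglia list fell as well (r = -0.44, rho = -0.47, adjusted permutation p = 0.0103 for r). The neuron list had r = 0.51 and rho = 0.55 (adjusted permutation p = 0.00292 for r) and the retina list r = -0.50 and rho = -0.38 (adjusted permutation p = 0.00292 for r). The telencephalon list had r = -0.29 and rho = -0.23 (adjusted permutation p = 0.0953 for r). Of its genes only eomesa had a positive r (0.57). For all the others r was negative, from -0.81 for emx2 to -0.01 for bhlhe22, with -0.44 for foxg1a.

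A further relation, also chosen after the values were seen, was that to the number of genes detected in a library. Of 73 members, 30 rose and 11 fell with it at an adjusted permutation p under 0.05 (n = 40), which is 41.1% and 15.1%, against 35.2% and 17.5% of all genes tested at the smallest correlation so called. All 41 kept their sign in each sex and without the 2 most extreme libraries. The strongest on the rising side were syt11b (r = 0.75, rho = 0.70), vamp2 (0.73, 0.72), the cplx2 gene ENSDARG00000111920 (0.71, 0.71), snap47 (0.69, 0.64) and snap91b (0.64, 0.70), with adjusted permutation p for r of 9.12e-05 in the first 4 and 0.000243 in snap91b. On the falling side were syt7b (r = -0.83, rho = -0.85), snap91a (-0.82, -0.78) and syt1a (-0.66, -0.52), each with 9.12e-05. In the 6 libraries with the fewest genes syt7b ran from 108.9 to 291 CPM, against 22.9 to 149 CPM in the other 34. There vamp2 ran from 0 to 35.1 CPM, against 2.78 to 117 CPM in the other 34. The 2 copies of snap91 thus moved opposite ways along this measure. Without those 6 libraries 27 members passed, 21 of them rising and 6 falling, and only 21 of the 41 were called again with the same sign. The share of all genes was not computed for these 34 libraries, so the 27 cannot be set against genes at large. Among the leaders syt1a lost its call (r = -0.38, adjusted permutation p = 0.0633), whereas vamp2 (r = 0.70, adjusted permutation p = 0.000243), snap91b (0.69, 0.000365), snap91a (-0.72, 0.000243) and syt7b (-0.75, 0.000243) kept theirs. Library totals rose with the number of genes detected (r = 0.53, rho = 0.40, adjusted permutation p = 0.00152 for r), and after thinning each library to 9392143 counts the same 41 members passed with the same sign. The snap25b to snap25a ratio fell with the number of genes detected (r = -0.38, rho = -0.40, adjusted permutation p = 0.0383 for r). Its r was -0.31 without the 2 most extreme libraries. The relations to the ratio and to the number of genes detected are thus not independent. The radial glia list rose with the number of genes detected (r = 0.66, rho = 0.43, adjusted permutation p = 0.00013 for r). So did the microglia list (r = 0.62, rho = 0.49, adjusted permutation p = 0.000195 for r), and the skeletal muscle list fell (r = -0.42, rho = -0.39, adjusted permutation p = 0.0201 for r). Without the 2 most extreme libraries r was 0.48 for radial glia, 0.52 for microglia and -0.22 for skeletal muscle. The part of these lists in these results was not tested.

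**Figure D5:**
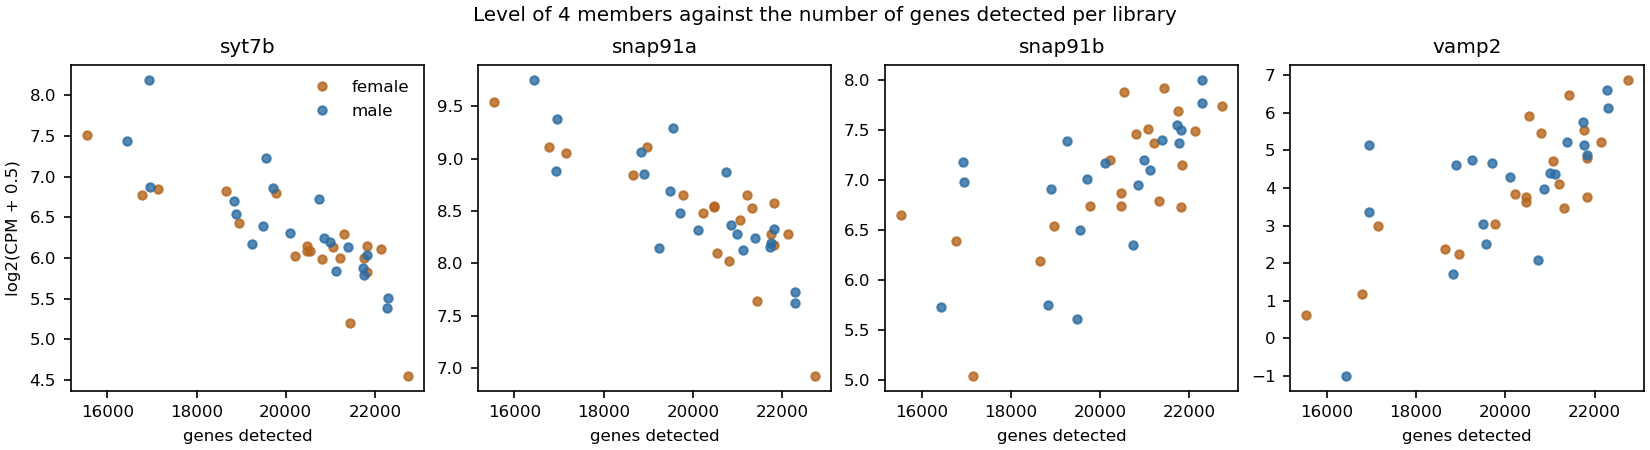
Log2(CPM + 0.5) of syt7b, snap91a, snap91b and vamp2 against the number of genes with 1 count or more in the library, 1 point per fish coloured by sex. Points of syt7b and snap91a fall and those of snap91b and vamp2 rise from left to right, with females and males intermingled.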

How the data were processed

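Poly-A RNA of 40 brains was sequenced with paired reads. The study's methods name nf-core/rnaseq with Ensembl annotation of the zebrafish build GRCz11. The authors deposited expected counts per gene from salmon, 1 table per sex, which were rounded here to whole numbers (12.1% of values above 0 were not whole). The deposited sample sheet calls the libraries unstranded although the kit is directional, so reads of genes that overlap on opposite strands cannot be told apart. Near-identical copies can share reads, and their split is uncertain. How alike the 2 genes named cplx2 are, or the 2 named cplx3a, was not checked.

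Gene symbols came from the authors' annotated results table. Its base mean, a score that the authors computed, was used only to check that the same 40 libraries were meant (median ratio 1 to the base mean recomputed over 22860 genes). Its fold changes and p-values compare groups for the authors and were not used. All 88 IDs were found in the reference name table, where 24 had the same symbol. Members, classes and pairs follow the authors' symbols. No transcript lengths or sequences were used here, so the rule to name pairs by level per length was not applied. The 40 columns differed from each other, and the correlation between libraries ran from 0.6975 to 0.973, with a median of 0.9145.

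Sexes were compared with edgeR 4.0.16 (quasi-likelihood test, robust, TMM, filterByExpr with 16875 of 32520 genes kept, Benjamini-Hochberg over all of them, called at 0.05), with diet left in the residual because columns carry no diet label. The tank of each fish is not tied to a column, so fish of 1 tank were treated as independent. Members and gene lists were chosen with earlier results of these data known. Named were the neuronal SNAREs (except 1 that is not reported here), complexins, synapsins, SV2 and RIM genes with a count, the 5 members with the smallest p by sex, the extremes of level in the other classes and of spread, and every correlated pair. The leading members of the 2 relations over fish were picked after their values were seen. Correlations and ratios used 100000 permutations, for which 1e-05 is the smallest p, and log2(CPM + 0.5). Alternatives were RLE size factors, other filters, DESeq2, limma-voom, another pseudocount, medians and CPM on library totals. A flow cell term, leaving out libraries, a covariate and thinning were added after the data were seen. The tests were checked on simulated data. DESeq2 1.42.0, limma 3.58.1, R 4.3.3, scipy 1.17.1 and matplotlib 3.10.9 were used.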

Additional observations from a re-analysis of the deposited data

How the results depend on the processing

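The count of genes called by sex was 0 for all genes, for members in each direction and for the vesicle cycle genes under RLE size factors, no filter, a filter of 1 CPM in 20 fish, DESeq2, limma-voom, a flow cell term, a covariate of genes detected, and without the 3 libraries of the second flow cell, the 6 libraries with fewer than 18000 genes detected or the library with the highest retina sum. Genes at an unadjusted p under 0.05 numbered between 279 (limma-voom) and 2704 (no filter). The log2 fold change of syt5a lay between 0.65, without the library with the highest retina sum, and 1.39 (limma-voom), with an adjusted p between 0.392 (edgeR with no filter) and 0.9999. That of stx12l lay between 0.05, without the 6 libraries, and 0.18. Of the members, 26 with a log2 fold change of at most 0.27 in size changed sign in some alternative, none of them called. No pair ratio was called in any alternative, and 5 to 7 pairs were correlated, against 6 (syt11a/syt11b was added on library totals, and sv2ba/sv2bb was lost without either set of libraries). The median SD of members was 0.55 on library totals, against 0.53. Members related to the number of genes detected fell to 27 without the 6 libraries, against 41, with 34 libraries left and 21 members called in both. Of the 34 members related to the snap25b to snap25a ratio, 28 were called with the same sign without those 6 libraries and 30 without the second flow cell. For both relations, shares of all genes were not computed in the smaller sets of libraries. Depth limits members below about 0.394 CPM, the highest level that 3 counts make in any library. No paired analysis was possible because the count columns carry no replicate number that ties a female to a male.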
